A study of Mus musculus with 31 samples.

Results

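Non-mesenchymal cells of the newborn pancreas were compared between mice with an H19DMD deletion and their littermate controls. The cells were chosen by their labels alone, as the YFP-negative fraction of this model, and make up 7 of the 31 samples of the series, 4 mutants and 3 controls. A control library numbered 4 was not analysed here. The 7 mesenchymal libraries of the same model, sorted as YFP-positive cells, serve for comparison. Mutants were H19DMDfl/+; Nkx3.2+/Cre and controls were H19DMD+/+; Nkx3.2+/Cre, so both groups carried the Cre allele. All were C57BL/6 mice at postnatal day 2, whose pancreata were dissociated with trypsin-EDTA before sorting. Recombination is driven by Nkx3.2, a gene of the pancreatic mesenchyme, and the cells described here were selected for lacking the YFP that marks that lineage. The labels do not say whether each library came from a separate animal or from a pool, so every p-value measures the spread between these libraries, which may in part be technical.

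Igf2, a growth factor expressed from the paternal allele, and H19, a non-coding RNA expressed from the maternal allele, share enhancers that the H19DMD control region allots between them. Deleting the region on the maternal allele is known to release Igf2 from silence, and deleting it on the paternal allele to release H19. IGF2 is secreted and acts on neighbouring cells through the receptors encoded by Igf1r and Insr, while Igf2r clears it. Without mesenchyme, the sorted fraction should hold enzyme-secreting acinar cells, hormone-secreting islet cells, duct cells, blood cells and other minor types, and the comparison asks what these cells express when their mesenchymal neighbours carry the deletion.

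Values are FPKM, read numbers scaled by transcript length and by the mapped reads of the library, and differences are on the log2(FPKM + 1) scale as mutant minus control. Their absolute depth is unknown, and relative depth spanned 1.44-fold over the 7 libraries. Between 14991 and 15477 protein-coding genes were above 0 in a library. Pearson's r across 12958 protein-coding genes was 0.906 to 0.928 between mutants, 0.917 to 0.924 between controls and 0.891 to 0.929 between a mutant and a control, so genotype did not set the libraries apart. The median difference of all genes tested was 0.05, and with median-ratio scaling it was -0.00121. In all 7 libraries the Y-linked gene Eif2s3y was expressed, at 37.9 to 64.3 FPKM, and Xist did not exceed 0.449 FPKM. A bulk library cannot tell fewer cells of a type from less RNA per cell, and this holds for every cell type described.

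The sorted fraction carried the transcripts its label implies. Ctrb1, which encodes chymotrypsinogen and was the highest acinar protease gene, lay between 33864 and 93011 FPKM. The insulin gene Ins2 reached 3738 to 10819 FPKM and the duct-enriched gene Spp1 706 to 1313 FPKM. Leukocyte transcripts were also present, with Cd74, the invariant chain of MHC class II, at 52.7 to 208 FPKM. Mesenchymal markers were low. Barx1, which averaged 6.12 FPKM in the mesenchymal libraries, was listed at 0 in all 7 libraries but mutant 4. Nkx3-2 was listed at 0 in all 7, but it averaged 0.778 FPKM in the mesenchymal libraries themselves. The 18 markers summed to 199 to 338 FPKM in mutants and 197 to 248 FPKM in controls, against 6010 to 8010 FPKM in the mesenchymal libraries.

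Of 16239 genes tested with limma, 11 passed an adjusted p (Benjamini-Hochberg) of 0.05, which is 0.0677% of them. Of these, 10 were lower and 1 was higher in mutants. All 11 were features shorter than 200 nt, and each was listed at 0 in every library of one group, so no fold change can be read for them. Restricting the limma test to the 14768 genes whose longest transcript reached 200 nt left 0 past the threshold, and 871 of those had an unadjusted p under 0.05. Below, "higher" and "lower" give the direction of values, and a member is counted as nominal where its unadjusted limma p was under 0.05. Of all genes tested 868 were nominal (5.35%), 481 higher (2.96%) and 387 lower (2.38%) in mutants. The groups did not overlap in 922 genes (5.68%), with all mutants above all controls in 564 (3.47%) and below in 358 (2.2%). These shares are the background for every count of nominal or non-overlapping members. For counts of higher and lower members, the background is that 7589 of 12958 protein-coding genes tested had a positive difference.

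The short features that passed are small nuclear and nucleolar RNAs, microRNA models and one small protein-coding model. A few features are shown because their sequences show what kind of feature reached the threshold. They come from the GENCODE M21 transcripts (GRCm38), written 5′ to 3′. Capitals mark bases that lie in a window of 50 nt, the read length, also found in a transcript of another gene.
SNORD113: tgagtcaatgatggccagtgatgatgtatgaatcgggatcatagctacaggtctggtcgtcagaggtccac
Gm17571: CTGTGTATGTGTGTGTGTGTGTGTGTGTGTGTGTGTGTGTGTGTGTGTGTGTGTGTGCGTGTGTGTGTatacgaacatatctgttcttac
AC126547.1: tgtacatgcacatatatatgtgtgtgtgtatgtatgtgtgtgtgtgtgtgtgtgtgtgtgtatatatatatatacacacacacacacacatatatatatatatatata

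SNORD113 (chr12:109643748-109643818, plus strand), a C/D box small nucleolar RNA of 71 nt whose family lies in the imprinted Dlk1 to Meg3 region, had no window shared with another gene. It was 649, 618 and 743 FPKM in controls 1 to 3 and listed at 0 in all 4 mutants (limma adjusted p = 4.27e-07). Gm17571 (chr9:13444034-13446753, minus strand) was the single protein-coding model that passed (0.00772% of 12958). It was 371, 378 and 800 FPKM in controls and listed at 0 in all mutants (limma adjusted p = 3.44e-05), and it did not pass in the fit on all 4 groups (limma adjusted p = 0.503). Its 90 nt hold an unbroken dinucleotide repeat of 50 nt, and 19 of its 41 windows occur in transcripts of 490 other genes. AC126547.1 (chr13:51765294-51765401, plus strand), a microRNA model listed at 0 in mutants and 72.9 to 82.6 FPKM in the controls, holds a dinucleotide repeat of 27 nt. For the U11 and SNORA9 features every window was shared with another gene, so their values are uncertain. This holds in part for AC102561.1 and SNORA84, with 19 of 61 and 32 of 84 windows shared. AC102561.1, snoU6-53, SNORA84, U6 and U1 were the remaining lower features, each listed at 0 in all 4 mutants. The single higher feature was AC105256.1, a microRNA model of 91 nt. It was 135, 508, 171 and 397 FPKM in mutants 1 to 4 and listed at 0 in all controls (limma adjusted p = 0.00107).

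The locus of the deletion was examined first among longer genes. Igf2 (chr7:142650766-142666816, minus strand) was 88.5, 157, 45.4 and 141 FPKM in mutants 1 to 4 and 53.2, 45.2 and 46.2 FPKM in controls 1 to 3. Mutants 1, 2 and 4 were above every control, and mutant 3 lay among them. The difference was 1.00 ± 0.42 (SE), with a limma p of 0.0466 before and 0.894 after adjustment, and it did not pass (exact permutation p = 0.114, two-sided, where 0.0286 is the smallest possible). H19 (chr7:142575529-142578143, minus strand) was 26.2, 32.4, 14.6 and 26.4 FPKM in mutants and 34.8, 26.2 and 27.0 FPKM in controls. These groups overlapped, with mutant 3 lowest, and the difference of -0.27 ± 0.28 (SE) did not pass (limma adjusted p = 0.898, exact permutation p = 0.457, two-sided). It was -0.0439 without mutant 3, -0.145 without control 1 and -0.41 without mutant 2.

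Both genes were far lower than in the mesenchymal libraries. The mesenchymal mutants had 7040 FPKM ± 800 (SD, n = 4) of Igf2 and the mesenchymal controls 3849 FPKM ± 189 (SD, n = 3), while for H19 the mutants had 700 FPKM ± 123 and the controls 2446 FPKM ± 8.11. The Igf2 difference in non-mesenchymal cells minus that in mesenchymal cells was 0.14 ± 0.47 (SE), and for H19 it was 1.55 ± 0.33 (SE). Neither passed over all 17105 genes tested (limma adjusted p = 0.979 and 0.448), where 2 genes (0.0117%) did and 1087 (6.35%) had an unadjusted p under 0.05. H19 was among these 1087 genes and Igf2 was not, with an unadjusted limma p of 0.000536 for H19 and 0.776 for Igf2.

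**Figure D1:**
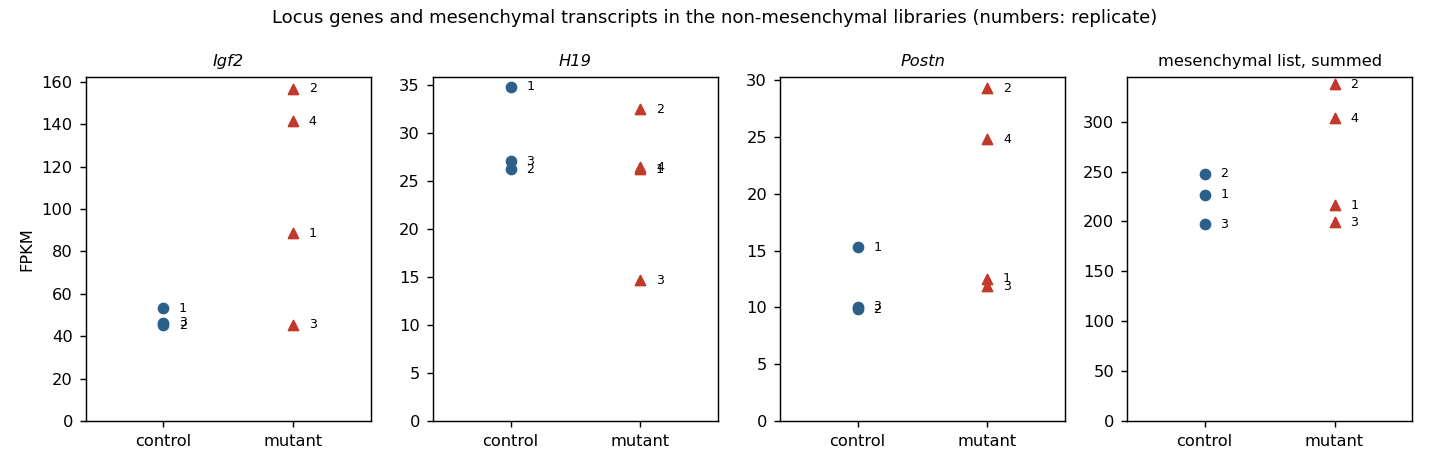
FPKM of Igf2, H19 and Postn and the summed FPKM of 18 mesenchymal markers, one point for each library, numbered by replicate (controls, circles, n = 3; mutants, triangles, n = 4). Mutants 2 and 4 are the highest libraries for Igf2, Postn and the summed markers.

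Mesenchymal transcripts varied among the libraries of each group. Postn, a matrix protein gene, was 12.5, 29.3, 11.8 and 24.8 FPKM in mutants and 15.3, 9.85 and 10.05 FPKM in controls. Mutants 2 and 4 were the highest of the 7 libraries for Postn, for the summed markers and for Igf2, as the plot of the locus genes and mesenchymal markers shows. That pair was the highest for 7 of the 18 markers taken singly. Vim, the intermediate filament gene vimentin, made up 47.5% and 49.7% of the marker sum in mutants 2 and 4, and Dcn, a matrix proteoglycan gene, was highest in control 1 (23.5 FPKM, against 19.5 and 15.5 FPKM in mutants 2 and 4). Mutant 1, with the third highest Igf2, had a marker sum of 216 FPKM, below controls 1 and 2 (227 and 248 FPKM), and Postn below control 1. Of the 12 mesenchymal markers tested, 10 were higher and 2 lower in mutants, 0 were nominal, and their median difference was 0.29, against 0.05 over all genes tested. One marker was nominal and higher without mutant 3 or control 2, and the median was 0.0762 without mutant 2, 0.153 without mutant 4, 0.148 without control 3 and 0.461 without control 1. The part of mesenchymal RNA in the Igf2 values of this fraction was not tested.

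The genes around IGF signalling gave few differences. Among 15 tested ligand, receptor and binding protein genes, Igf2 was the only one nominal and higher, and Pappa2 the only one nominal and lower. Pappa2, a protease that frees IGF from its binding proteins, was 4.68, 3.57, 2.99 and 1.72 FPKM in mutants and 9.63, 5.40 and 6.63 FPKM in controls. All mutants were below all controls, by -0.97 ± 0.31 (SE; limma adjusted p = 0.892). Igf1r differed by 0.24 ± 0.23 (SE), Insr by 0.38 ± 0.16 (SE), and Igf2r by -0.08 ± 0.30 (SE). The list's median difference was 0.06, and it turned to -0.0022 with median-ratio scaling and ranged from 0.0129 (without mutant 2) to 0.22 (without mutant 3) when 1 library was left out. Without mutant 3, 3 genes were nominal and higher. No gene of the list was nominal and higher without mutant 1, mutant 2, mutant 4, control 1 or control 2, or with median-ratio scaling.

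Of 22 genes of the PI3K, AKT, mTOR and FoxO pathway downstream of those receptors, 3 were nominal and all 3 were lower. Rptor, which encodes the mTORC1 subunit Raptor, was 12.7, 10.9, 11.03 and 8.98 FPKM in mutants and 12.9, 18.3 and 19.9 FPKM in controls, a difference of -0.58 ± 0.20 (SE). Rps6kb1, the S6 kinase that mTORC1 phosphorylates, was 30.5, 54.4, 62.2 and 36.4 FPKM against 96.9, 67.1 and 74.3 FPKM, a difference of -0.82 ± 0.28 (SE). Foxo1, a transcription factor restrained by AKT, was 16.3, 12.998, 14.8 and 9.89 FPKM against 18.2, 20.1 and 22.6 FPKM, a difference of -0.57 ± 0.20 (SE). In these 3 genes all mutants were below all controls, and for each the limma adjusted p was 0.892. The other 19 were not nominal, and the median of the list was 0.09. Only 1 gene was nominal and lower without mutant 4, control 2 or control 3, and the median was 0.0145 to 0.0531 without any 1 of the mutants, -0.106 without control 1 and -0.0122 without control 3.

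Protein-coding genes with the largest differences were taken among those with a mean log2(FPKM + 1) of at least 3, no overlap between groups and an unadjusted limma p under 0.05. There were 171 candidates higher in mutants and 87 lower among the 7129 protein-coding genes of that level, whose median difference was 0.0724. Of all nominal genes 55.4% were higher in mutants, and 47.3% with median-ratio scaling. The first 10 candidates of each direction are given. The limma adjusted p was 0.892 for 19 of these 20 genes and 0.687 for Jkamp, so none passed.

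Of the 10 higher genes 4 are on the neutrophil list, which was written after values had been seen, S100a8, S100a9, Ngp and Retnlg. S100a8 and S100a9 encode the calcium-binding subunits of calprotectin, which fill the neutrophil cytoplasm. S100a8 was 199, 145, 159 and 231 FPKM in mutants and 39.3, 86.8 and 97.0 FPKM in controls, a difference of 1.37 ± 0.34 (SE). S100a9 was 166, 195, 187 and 332 FPKM against 37.9, 119 and 107 FPKM, a difference of 1.42 ± 0.44 (SE). Control 1 was the lowest library for both. Ngp, a neutrophil granule protein gene, was 23.7, 23.6, 26.05 and 68.3 FPKM against 9.12, 7.73 and 21.02 FPKM. Retnlg, a resistin-like gene of neutrophils, was 33.2, 29.6, 23.1 and 45.2 FPKM against 5.40, 19.5 and 15.7 FPKM. Cxcl1, a chemokine that attracts neutrophils, was 53.2, 36.8, 28.2 and 55.6 FPKM against 7.22, 25.4 and 18.1 FPKM. In the other fraction Cxcl1 was higher still, as the mesenchymal mutants had 283 FPKM ± 93.8 (SD, n = 4) and the mesenchymal controls 289 FPKM ± 61.2 (SD, n = 3). The differences of Ngp, Retnlg and Cxcl1 were 1.39 ± 0.48, 1.34 ± 0.43 and 1.42 ± 0.43 (SE).

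The other 5 higher genes have varied functions. Wfdc18, of the whey acidic protein family, had the largest difference, at 2.01 ± 0.43 (SE), with 19.5, 13.1, 33.3 and 9.91 FPKM in mutants and 3.14, 5.57 and 2.34 FPKM in controls. Its relative Wfdc15b was 39.3, 31.9, 25.1 and 32.5 FPKM against 7.27, 21.04 and 11.3 FPKM, a difference of 1.32 ± 0.34 (SE). Jkamp, a membrane protein that binds JNK, was 16.7, 23.2, 17.9 and 19.8 FPKM against 6.87, 9.64 and 4.97 FPKM, a difference of 1.35 ± 0.23 (SE). Faf1, which binds the death receptor Fas, was uneven among mutants, at 15.3, 97.96, 14.8 and 49.3 FPKM, against 10.4, 7.70 and 6.81 FPKM in controls. Trappc6a, a subunit of the TRAPP vesicle-tethering complex, was 5.35 FPKM in mutant 1 and 14.8 to 15.4 FPKM in the other mutants, against 3.93 to 4.13 FPKM in controls.

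Of the 10 lower genes 3 are on the T cell list (Cd3e, Gata3 and Satb1), 2 on the B cell list (Cd79a and Tnfrsf13c) and 1 on the MHC class II list (Cd74), all written after values had been seen. Cd3e, a subunit of the T cell receptor complex, was 17.1, 3.78, 3.56 and 3.36 FPKM in mutants and 36.6, 22.1 and 31.02 FPKM in controls, the largest difference of this direction at -2.23 ± 0.53 (SE). Gata3, a transcription factor of T cell development, was 10.1, 11.99, 5.46 and 4.94 FPKM against 23.7, 16.9 and 51.9 FPKM. Satb1, a chromatin organiser of thymocytes, was 45.9, 13.8, 25.6 and 15.1 FPKM against 76.1, 51.6 and 63.5 FPKM. Satb1 was also expressed in the other fraction, as the mesenchymal mutants had 24.7 FPKM ± 4.83 (SD, n = 4) and the mesenchymal controls 21.2 FPKM ± 2.85 (SD, n = 3). Mutant 1 was the mutant nearest the controls for Cd3e and Satb1, though not for Gata3. Ikzf1, which encodes the lymphoid transcription factor Ikaros, was 22.8, 7.47, 10.9 and 11.1 FPKM against 55.6, 23.1 and 27.8 FPKM.

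Genes of B cells and antigen presentation were the next group among the 10. Cd79a, a signalling chain of the B cell receptor, was 9.08, 4.06, 3.603 and 7.78 FPKM in mutants and 14.6, 19.6 and 14.1 FPKM in controls, a difference of -1.33 ± 0.33 (SE). Tnfrsf13c, the receptor for the B cell survival factor BAFF, was 8.80, 3.44, 3.30 and 5.23 FPKM against 10.2, 13.5 and 13.5 FPKM, a difference of -1.19 ± 0.32 (SE). Cd74 was 185, 79.9, 72.2 and 52.7 FPKM against 208, 201 and 187 FPKM, a difference of -1.19 ± 0.40 (SE). Mutant 1 missed the lowest control for Cd74 by a small margin, and the other mutants lay well below. Ms4a6b, Sp100 and Zwilch, a kinetochore gene, completed the list with differences of -1.28 ± 0.36, -1.16 ± 0.31 and -1.13 ± 0.23 (SE).

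**Figure D2:**
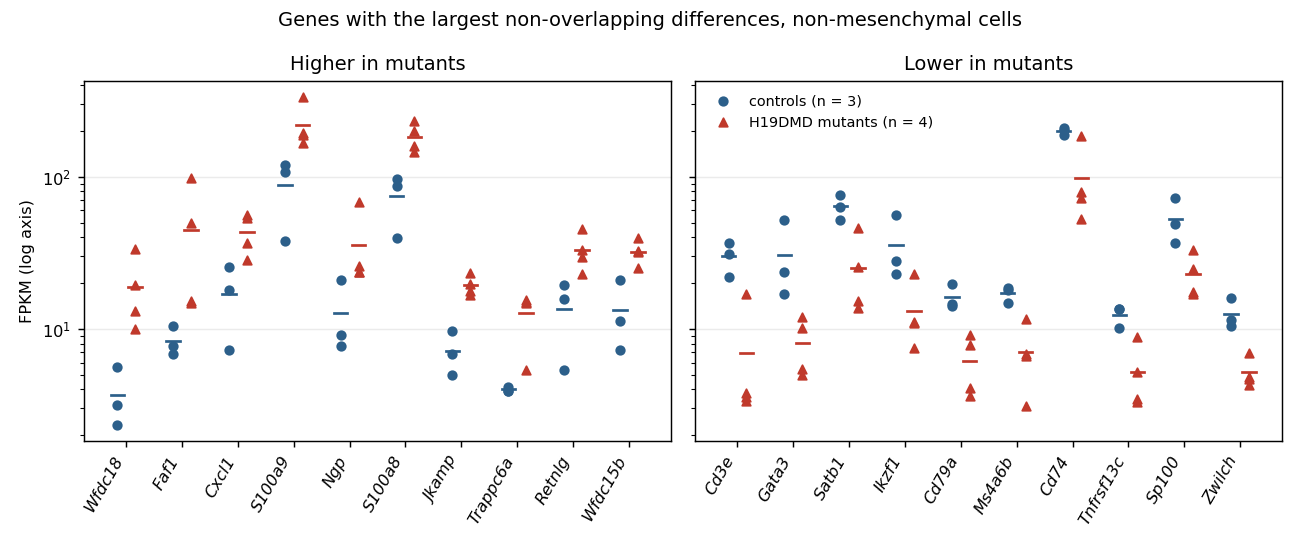
FPKM on a log axis for the 10 genes with the largest non-overlapping difference in each direction, one point for each library (controls, circles, n = 3; mutants, triangles, n = 4) and a bar at each group's mean. Mutant 1 stands apart from the other mutants for Cd3e, at 17.1 FPKM against 3.36 to 3.78 FPKM.

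The leukocyte list as a whole held both directions. Of 20 tested markers 2 were nominal and higher, S100a8 and S100a9, and 5 were nominal and lower, Ptprc, Cd74, Cd3e, Cd79a and Ms4a1. All mutants were below all controls in 4 of them and above in 2, and the list's median was 0.01. It turned negative without control 1 (-0.462), without mutant 4 (-0.287) and with median-ratio scaling (-0.0412), and it rose to 0.283 without control 2. The count of nominal lower markers was 8 without mutant 1 and 3 without control 1 or control 2. Ptprc, which encodes the pan-leukocyte antigen CD45, was 21.1, 6.96, 9.33 and 8.69 FPKM in mutants and 24.1, 21.8 and 19.01 FPKM in controls. Only mutant 1 reached the control range.

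Because the direction differed within that list, lists for each immune lineage were written after these values had been seen, so their counts are a description and no independent evidence. All 20 tested T cell genes were lower in mutants, 15 of them nominal and 7 with no overlap, and their median difference was -1.42. Besides Cd3e these included the coreceptor gene Cd4, at 12.4, 2.81, 1.40 and 1.56 FPKM in mutants and 15.4, 11.6 and 17.2 FPKM in controls. The lymph node homing receptor gene Ccr7 was 8.88, 1.23, 0.551 and 1.61 FPKM against 13.5, 13.5 and 10.4 FPKM, and Tcf7, a transcription factor of T cell development, was 30.1, 4.98, 7.12 and 4.53 FPKM against 36.2, 21.02 and 32.2 FPKM. In these 3 genes mutants 2, 3 and 4 were far below every control and mutant 1 was near them. The same held for the mean log2 level of the list, which was 3.27, 1.79, 1.53 and 1.55 in mutants and 3.61, 3.03 and 3.51 in controls, so the list means overlapped through mutant 1.

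Of 15 B cell genes 12 were lower, 9 nominal and 6 with no overlap, and the median was -0.93. Ighm, the constant region of immunoglobulin M, was 67.5, 29.2, 33.5 and 30.2 FPKM in mutants and 94.3, 107 and 88.1 FPKM in controls. Ms4a1, which encodes CD20, was 6.38, 1.75, 2.13 and 2.65 FPKM against 13.3, 15.5 and 8.41 FPKM. Neither gene overlapped between groups, and mutant 1 was again the highest mutant. The 3 exceptions were Blnk (0.04) and the precursor B cell genes Vpreb1 (0.43) and Igll1 (1.06), none of them nominal. All 7 tested MHC class II genes were lower, 4 nominal, with a median of -0.90. H2-Ab1, for example, was 167, 37.8, 65.7 and 21.7 FPKM against 120, 197 and 162 FPKM, with mutant 1 inside the control range.

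Myeloid genes did not share this direction. Of 17 tested neutrophil genes 16 were higher, 4 nominal and 4 with no overlap, with a median of 0.68. The 4 are S100a8, S100a9, Ngp and Retnlg, and the others overlapped, such as the granule gene Camp, at 1.97, 9.25, 4.44 and 38.8 FPKM in mutants and 1.503, 8.97 and 17.1 FPKM in controls. The mean log2 level of the neutrophil list was 2.89, 3.07, 2.86 and 4.04 in mutants and 1.87, 2.69 and 2.96 in controls, highest in mutant 4 and lowest in control 1. Of 17 macrophage and monocyte genes 14 were higher but 0 were nominal, and their median was 0.25, which was 0.00611 without control 1, 0.115 without mutant 4 and 0.566 without control 2. The neutrophil median was 0.297 without control 1 and 0.351 without mutant 4. Csf1r, the receptor that macrophages depend on, was 11.9, 15.2, 16.5 and 30.7 FPKM against 7.46, 17.3 and 14.2 FPKM.

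**Figure D3:**
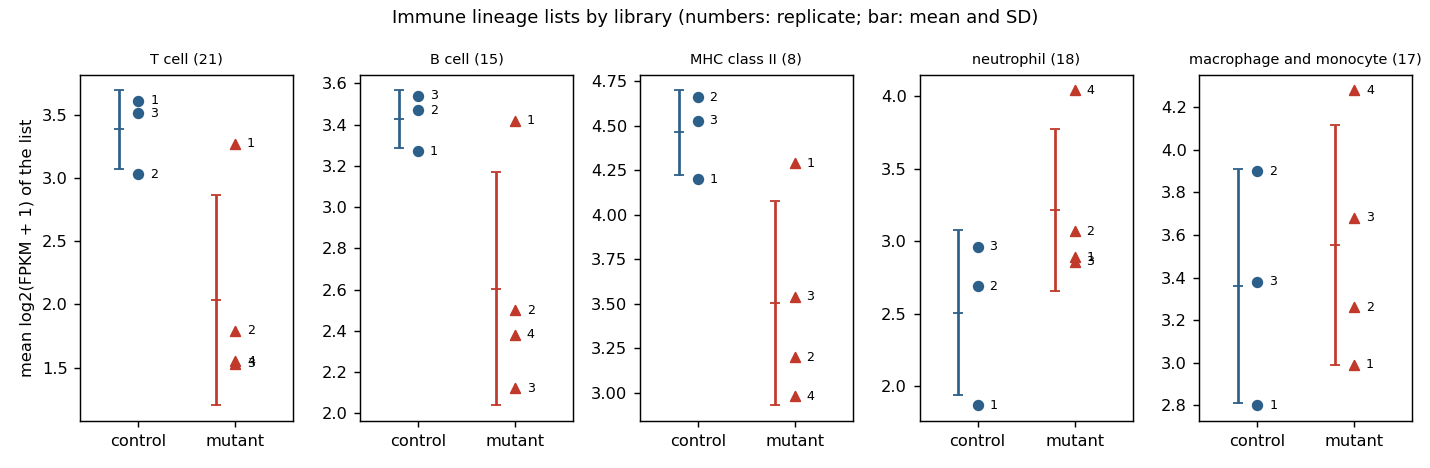
Mean log2(FPKM + 1) of 5 immune lineage lists, one point for each library, numbered by replicate, with each group's mean and SD beside the points (controls, circles, n = 3; mutants, triangles, n = 4; the vertical axes differ). Mutant 1 lies with the controls for the T cell, B cell and MHC class II lists, and mutants 2, 3 and 4 lie below them.

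Leaving out mutant 1 changed which longer genes passed. Without it, 5 genes that have a transcript of 200 nt or longer passed the adjusted threshold, Cd3e (-2.73 ± 0.23 SE, limma adjusted p = 0.0175), Ccr7 (-2.68 ± 0.27 SE, 0.0441), Ighm (-1.61 ± 0.15 SE, 0.0343), Mylpf (-3.38 ± 0.33 SE, 0.0343) and Trappc6a (1.68 ± 0.16 SE, 0.0343). Mylpf, a muscle myosin light chain gene, was not among the genes chosen by the naming rule. Without control 3, 2 other such genes passed, Zfp93 and Gm5416. The number of nominal T cell genes was 19 of 20 without mutant 1, and it was 7 without control 1, 8 without control 3, 9 without mutant 3 or mutant 4 and 10 without mutant 2. That of B cell genes ranged from 6 to 11. Of MHC class II genes 6 were nominal without mutant 1, 2 without control 1, 0 without control 2 and 1 without any other library. The median of each of the T cell, B cell, MHC class II and neutrophil lists kept its sign under all 16 alternative settings, with ranges of -1.82 to -1.22, -1.32 to -0.754, -1.26 to -0.738 and 0.297 to 1.06.

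Erythroid transcripts varied widely in both groups. Hba-a1, an alpha globin gene, was 24.9, 72.8, 96.4 and 140 FPKM in mutants and 10.98, 45.7 and 18.1 FPKM in controls, a difference of 1.70 ± 0.67 (SE; limma adjusted p = 0.894). Mutant 1 lay below control 2. The mean log2 level of the erythroid list was 2.45, 3.54, 3.68 and 4.18 in mutants and 1.90, 3.26 and 2.56 in controls, so control 2 exceeded mutant 1 here as well. Of 8 tested erythroid genes 7 were higher and 3 nominal, Hba-a1, Hba-a2 and Alas2, the heme synthesis enzyme of red cells, and no gene separated the groups. The median was 1.59, but 0 genes were nominal when any of mutants 2, 3 or 4 or controls 1 or 3 was left out, and 5 were without mutant 1. Whether blood content had a part in the leukocyte values was not tested.

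Hormone genes of the islets were compared as the main endocrine readout. Ins1, an insulin gene, was 4732, 3446, 3554 and 2331 FPKM in mutants and 5231, 7424 and 6775 FPKM in controls. All mutants were below all controls, by -0.91 ± 0.29 (SE). Ins2, the second insulin gene of the mouse, was 6991, 5056, 4387 and 3738 FPKM against 6416, 10095 and 10819 FPKM, a difference of -0.86 ± 0.31 (SE). Mutant 1 exceeded control 1 for Ins2, so these groups overlapped. Gcg, which encodes glucagon of alpha cells, was 6112, 4289, 2577 and 2669 FPKM against 6206, 8888 and 6556 FPKM, a difference of -0.96 ± 0.36 (SE), with no overlap.

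These 3 of 8 hormone genes were nominal, each with a limma adjusted p of 0.892, and none passed. Sst, the somatostatin gene of delta cells, was 1534, 1442, 1486 and 1306 FPKM in mutants and 810, 1874 and 1738 FPKM in controls, a difference of 0.06 ± 0.31 (SE). Ppy, Pyy and Iapp differed by -0.21, -0.16 and -0.36, and Ghrl, the ghrelin gene, by 0.38, with overlapping groups in all 4. The median of the 8 was -0.29, and it was -0.132 without control 2 and -0.444 without control 1. The count of nominal hormone genes was 0 without control 2 and 1 without mutant 3, mutant 4 or control 3, and it reached 4 without control 1.

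**Figure D4:**
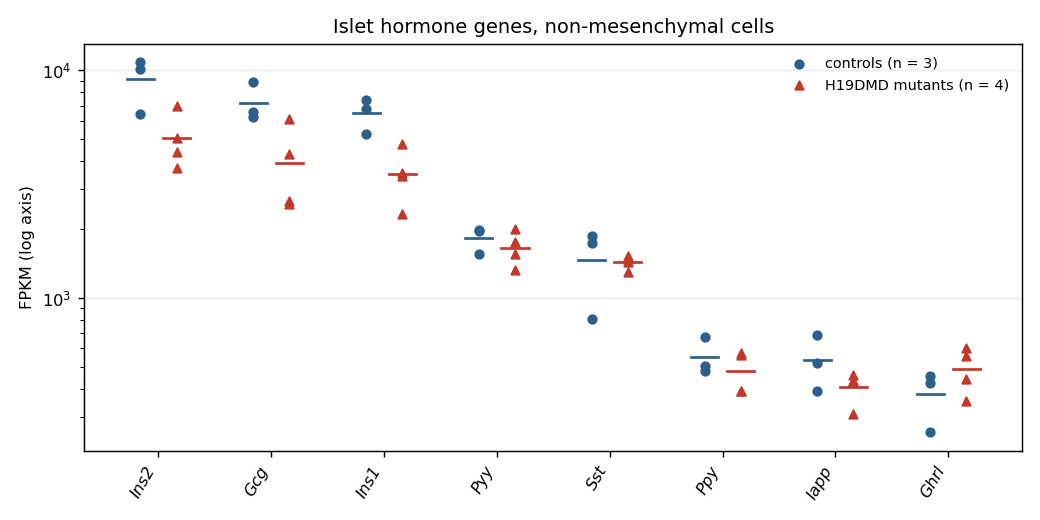
FPKM on a log axis for 8 islet hormone genes, one point for each library (controls, circles, n = 3; mutants, triangles, n = 4) and a bar at each group's mean. All mutants lie below all controls for Ins1 and Gcg, while the other genes overlap.

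Among genes that set up or run the endocrine cell, few were nominal. Of 16 tested islet transcription factor genes 2 were nominal, both lower, with a median of -0.18. The count of lower genes was 0 without mutant 3, 1 without mutant 2, mutant 4, control 2 or control 3, and 3 without mutant 1 or with median-ratio scaling. The median was -0.0701 without mutant 3, -0.0807 without control 3, -0.0894 without mutant 4 and -0.289 without mutant 1. Nkx6-1, which beta cells require, was 14.3, 15.6, 12.7 and 12.5 FPKM in mutants and 19.7, 16.3 and 22.8 FPKM in controls, a difference of -0.48 ± 0.17 (SE) with no overlap. Pdx1, the pancreatic and beta cell factor, was 10.8, 10.01, 11.04 and 11.1 FPKM against 11.1, 16.9 and 14.3 FPKM, a difference of -0.35 ± 0.18 (SE) that was not nominal. Irx2, an alpha cell factor, was the other nominal gene, at -1.05 ± 0.43 (SE). Neurog3, which marks endocrine progenitors, was 3.49, 5.26, 2.26 and 5.26 FPKM against 2.05, 2.86 and 6.12 FPKM.

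Among 21 genes of hormone processing and secretion 15 were lower, and Pcsk1n, an inhibitor of the prohormone convertase PCSK1, was the single nominal one (-0.75 ± 0.23 SE). It was 6.13, 3.02, 4.81 and 3.75 FPKM in mutants and 8.09, 7.62 and 8.004 FPKM in controls. The convertase gene Pcsk1 itself differed by -0.0047 ± 0.20 (SE) and the glucose transporter gene Slc2a2 by 0.04 ± 0.20 (SE). The list's median was -0.20, or -0.124 without mutant 4, and 2 genes were nominal without mutant 1 or mutant 2.

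Acinar genes did not separate the groups. Of 16 tested protease genes 15 were lower in mutants, with a median of -0.25, but 0 were nominal and 0 separated the groups. Cpa1, a carboxypeptidase gene, was 874, 889, 1477 and 1058 FPKM in mutants and 821, 1181 and 1983 FPKM in controls. Control 3 was the highest library for Cpa1, and without it the median of the protease list was 0.0779. The median was -0.559 without control 1, with 1 gene nominal and lower, -0.412 without mutant 3 and -0.157 without mutant 2. Of 14 lipase, amylase and granule protein genes only Amy1 was nominal, higher by 0.89 ± 0.29 (SE), with overlapping groups. Ptf1a and Rbpjl, which drive the acinar program together, differed by -0.40 ± 0.33 and -0.31 ± 0.28 (SE). Gata4 was the single nominal factor, at 3.18, 3.10, 6.91 and 2.77 FPKM against 5.46, 7.69 and 13.3 FPKM. It was not nominal without mutant 1, mutant 2, mutant 4, control 2 or control 3, 1 other factor was nominal and higher without mutant 1, and 2 factors were nominal and lower without mutant 3 or control 1 or with median-ratio scaling. Amy1 was not nominal without control 2, and 1 gene of its list was nominal and lower without mutant 3 or control 1.

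Ductal keratin genes were higher in mutants but not nominal with all 7 libraries. Krt19 was 51.6, 73.7, 56.9 and 70.7 FPKM in mutants and 29.8, 50.6 and 50.6 FPKM in controls, a difference of 0.55 ± 0.24 (SE; limma adjusted p = 0.894), with all mutants above all controls. Of 13 ductal genes 11 were higher, 0 nominal, with a median of 0.34. Without mutant 1, 3 of them were nominal, and 1 was with median-ratio scaling or without control 2 or control 3. Sox9, a factor of duct and progenitor cells, differed by 0.06 ± 0.19 (SE).

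Genes of the cell cycle gave no difference that passed. The 16 DNA replication genes had 0 nominal members and a median of 0.0018, which was -0.0605 with median-ratio scaling and ranged from -0.0904 (without control 1) to 0.0812 (without mutant 2). One was nominal without mutant 4, control 1 or control 2 or with that scaling. Mki67, the proliferation marker, was 51.8, 50.3, 45.5 and 68.3 FPKM in mutants and 51.6, 58.9 and 58.8 FPKM in controls. Of 20 mitosis genes 15 were lower with a median of -0.15, and Bub1, a spindle checkpoint kinase gene, was the single nominal one (-0.51 ± 0.20 SE). The count was 0 without mutant 1, 2 or 3 or control 2 or 3, and 2 without mutant 4, without control 1 or with median-ratio scaling. The median was -0.266, -0.246 and -0.21 in the last 3 of these fits and -0.0759 without control 2.

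Receptors through which the epithelium reads mesenchymal signals were 18, of which 2 were nominal and higher. Egfr was 10.8, 2.85, 2.63 and 4.95 FPKM in mutants and 2.43, 1.27 and 1.46 FPKM in controls, a difference of 1.06 ± 0.45 (SE), with mutant 1 far above the rest. Rarg, a retinoic acid receptor gene, was 4.35, 9.03, 5.09 and 5.09 FPKM against 2.46, 3.15 and 3.94 FPKM, a difference of 0.69 ± 0.27 (SE). Neither overlapped. The count of nominal higher receptors was 0 without mutant 4 or control 1 and 1 without any other library or with median-ratio scaling. The list median of 0.20 was 0.0571 without control 1, 0.101 without mutant 2, 0.113 without mutant 4 and 0.312 without control 3. One receptor gene was nominal and lower without control 3. Fgfr2, the receptor for mesenchymal FGF10, was 133, 148, 172 and 159 FPKM against 142, 135 and 169 FPKM, a difference of 0.04 ± 0.16 (SE).

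Other imprinted genes were followed because the deleted element is itself imprinted. Of 15 tested, Cdkn1c and Peg10 were nominal, and both separated the groups. Cdkn1c, a cell cycle inhibitor gene on the same imprinted arm as Igf2, was 11.7, 15.6, 10.4 and 14.6 FPKM in mutants and 9.37, 7.52 and 5.57 FPKM in controls, a difference of 0.74 ± 0.23 (SE). Peg10, a gene of retrotransposon origin, was 51.5, 33.8, 33.1 and 30.03 FPKM against 58.0, 66.4 and 65.8 FPKM, a difference of -0.79 ± 0.21 (SE). Mutant 1 was the mutant nearest the controls for Peg10. For both, the limma adjusted p was 0.892. The list's median was 0.08, or 0.238 without mutant 1, 0.13 without mutant 2, 0.312 without control 3 and 0.0113 with median-ratio scaling, and 3 genes were nominal and higher without mutant 1 and 2 without control 3. Meg3, the imprinted non-coding RNA of the region that holds SNORD113, was 111, 202, 147 and 180 FPKM against 97.4, 84.5 and 139 FPKM, a difference of 0.57 ± 0.26 (SE; limma adjusted p = 0.894), with overlap.

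**Figure D5:**
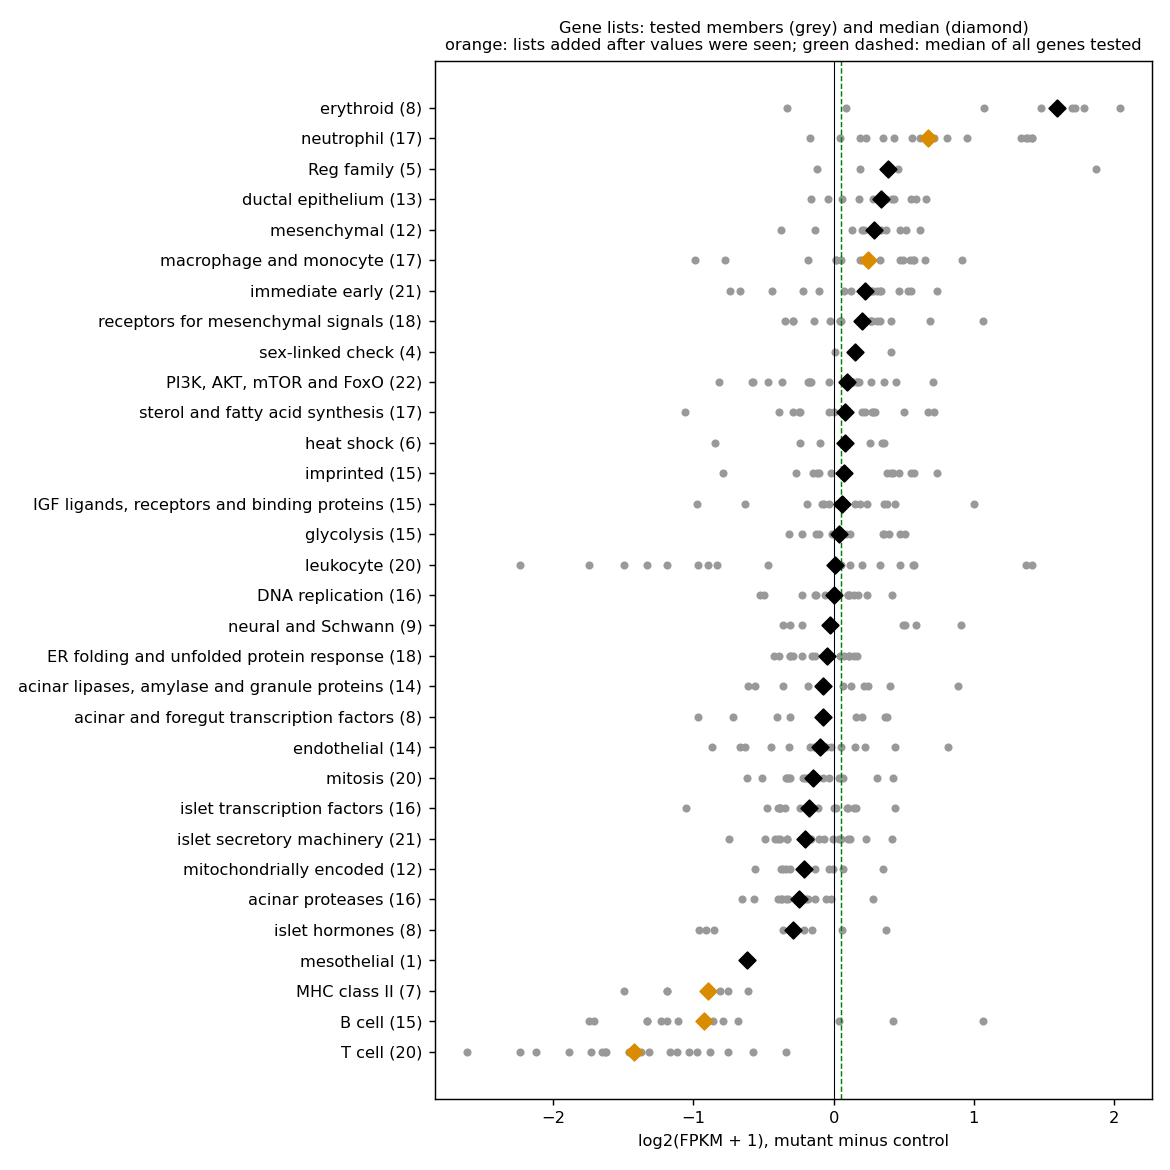
Differences on the log2(FPKM + 1) scale, mutant minus control, for the tested members of each gene list (grey points; number tested in parentheses) and the list's median (diamond; orange for lists written after values were seen), with the median of all genes tested, 0.05, as a dashed line. The T cell list has the lowest median, -1.42, and the erythroid list the highest, 1.59.

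Immediate early and stress genes, which respond quickly to a stimulus, were compared as well. Of 21 immediate early genes 16 were higher with a median of 0.22, and 2 were nominal, Egr2 at 0.55 ± 0.22 (SE) and Myc at -0.67 ± 0.28 (SE). No gene of the list was nominal without mutant 2 or control 1, Myc was nominal in no fit that left out a library other than mutant 4, and the median was 0.0235 without control 1 and 0.342 without control 2. Fos was 309, 394, 303 and 373 FPKM in mutants and 230, 332 and 298 FPKM in controls. No gene of the unfolded protein response list was nominal among 18, nor of the 6 heat shock, 15 glycolysis or 12 mitochondrially encoded genes. Their medians were -0.05, 0.08, 0.04 and -0.21. When 1 library was left out they ranged from -0.134 (without control 3) to 0.0291 (without control 2), from -0.111 (without control 1) to 0.229 (without mutant 3), from -0.0332 (without mutant 4) to 0.113 (without control 2), and from -0.319 (without control 1) to -0.104 (without mutant 4). The glycolysis median was -0.029 with median-ratio scaling, and the first 3 lists changed sign in some of these fits. At most 1 gene of each list was nominal in any of them.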

How the data were processed

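RNA was whole-transcriptome amplified and sequenced as single reads of 50 nt, per the labels' protocols. The authors deposited FPKM values per gene, per the file headers. Per the submitters' processing notes, TopHat2 2.0.8, Cufflinks 2.2.1 and GRCm38 were used. The annotation, use of strand and scaling between libraries are not given in the sources used here. FPKM divides by transcript length, which inflates short features, and 3 features held 41.1 to 56.8% of a library's total. A value of 0 may stand for an estimate that failed, so a gene is only said to be listed at 0.

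Of 38283 genes in the table, 36425 matched GENCODE M21 (GRCm38) by identifier and 36301 overlapped its locus. Every gene that averaged 1 FPKM or more entered the test, made with limma 3.58.1 (R 4.3.3) after taking log2(FPKM + 1), with a variance trend, two-sided, with Benjamini-Hochberg adjustment over all genes tested, using only the 7 libraries of this fraction. This scale understates the change of low genes. Differences between fractions were tested as an interaction over 14 libraries. On simulated data with 14768 genes of this comparison, 36.4, 80.6 and 94% of genes changed by a log2 of 1, 2 and 3 were recovered, with 8 false calls. These rates hold for 66, 67 and 67 changed genes, and may overstate recovery where fewer genes change. Read totals are unknown, which leaves counting intervals out.

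Genes were named from among Igf2 and H19, those past the adjusted threshold, the 10 largest non-overlapping nominal differences in each direction among named protein-coding genes with a mean log2 of at least 3, and the 3 highest members of each list. Further list members are named as examples, chosen after their values were seen. Some members are not reported here. Members and lists were chosen with earlier results of these data known. The symbols Cela3a, Hbb-bs, Hbb-bt, Ahsp, Rian, Mirg and Kcnq1ot1 had no row by that name. Only Gpm6a of 7 mesothelial markers was tested (-0.62). The endothelial list (14 tested), the Reg family (5), neural and Schwann genes (9) and sterol and fatty acid genes (17) had 0, 0, 2 and 2 nominal members. The medians of the first 3 were -0.10, 0.39 and -0.03, and all changed sign when 1 library was left out, ranging from -0.361 (without control 1) to 0.144 (without control 3), from -0.0426 (without control 1) to 0.661 (without control 3) and from -0.069 (without control 1) to 0.411 (without mutant 4). Alternatives were another pseudocount, filter, scaling and gene set, a fit without variance trend, a fit on all 4 groups, a replicate block and leaving out each library.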

Additional observations from a re-analysis of the deposited data

Results flagged for a closer look

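In 7 of 130 results screened, 1 of the 4 mutant libraries lay far from the other 3, with a gap to the nearest above Dixon's 95% critical value as a share of the range. Chance flags about 1 in 20 groups. Values are log2(FPKM + 1). Mutant 1 was the library concerned in 4 of them. Cd3e was 4.18 there and 2.12 to 2.26 in the other mutants, the mean of the T cell list was 3.27 against 1.53 to 1.79, Trappc6a was 2.67 against 3.98 to 4.03, and Hspa5, an endoplasmic reticulum chaperone gene, was 8.16 against 8.59 to 8.65. Mutant 4 was concerned for Ngp, at 6.11 against 4.62 to 4.76, and for the citrate-cleaving enzyme gene Acly, at 5.89 against 6.37 to 6.46. Mutant 3 stood out for the acinar factor gene Rbpjl, at 4.85 against 4.07 to 4.19.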

How the results depend on the processing

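The count of 11 genes past the limma adjusted threshold was 0 with transcripts of at least 200 nt, 1 with protein-coding genes only and 1 in the fit on all 4 groups, which also ended the call of Gm17571 (limma adjusted p = 0.503). It ranged from 14 to 34 when 1 library was left out, and 10 or 11 of the original genes were shared each time. The largest counts came without control 3 (34), control 2 (30) and control 1 (25), then mutant 1 (20) and mutant 4 (19). The 2 genes whose difference depended on the fraction became 6 with a pseudocount of 0.1, 6 with no filter, and 0 with transcripts of at least 200 nt (998 of 15250 at an unadjusted p under 0.05) or protein-coding genes only (933 of 13285), and 2 to 9 when 1 library was left out. Igf2 (0.774 to 1.36) and H19 (-0.41 without mutant 2 to -0.0439 without mutant 3) kept their direction and did not pass under any alternative that gave a value. H19 had none with protein-coding genes only.

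Same-numbered mutants and controls did not deviate together (correlations of 0.0275, -0.0768 and -0.0627). These few values cannot decide whether the numbers pair the samples, and mutant 4 had no analysed control of its number. With a replicate block, 5 genes passed in place of 11, Igf2 differed by 0.823 and H19 by -0.314, without passing. Of nominal genes, 55.4% were higher in mutants, 47.3% with median-ratio scaling, and 39.6 to 66.1% when 1 library was left out (lowest without control 1, highest without control 3). Of 97 named genes, 31 changed sign under some alternative. With 3 controls, 4 mutants and unknown depth, differences near a log2 of 1 are often missed, and short features cannot be measured well.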

Other observations

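Of 17 tested genes of sterol and fatty acid synthesis, 1 was nominal and higher, Fasn, and 1 nominal and lower, Scd1. The list's median was 0.085, and it ranged from -0.0375 (without control 1) to 0.198 (without mutant 1) when 1 library was left out. Scd1, which desaturates fatty acids, was 1.14, 1.52, 0.557 and 1.45 FPKM in mutants and 3.87, 3.35 and 3.12 FPKM in controls, a difference of -1.06 ± 0.27 (SE), with all mutants below all controls. Fasn, the fatty acid synthase gene, was 12.3, 17.6, 9.995 and 13.04 FPKM against 5.82, 7.99 and 10.05 FPKM, a difference of 0.67 ± 0.25 (SE), with overlap through mutant 3. Fasn was not nominal without mutant 2, mutant 4, control 1 or control 2. For both, the limma adjusted p was 0.892. Acaca, the acetyl-CoA carboxylase gene, was 24.4 FPKM in mutant 4 and 3.53 to 3.65 FPKM in the other mutants, against 3.19 to 3.42 FPKM in controls.

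Of the 9 neural and Schwann genes tested, S100b and Erbb3, a neuregulin receptor gene, were nominal and higher, with no overlap between groups. The count of nominal genes was 0 without control 1 and 1 without mutant 2 or control 3. S100b was 3.57, 5.55, 4.53 and 6.81 FPKM in mutants and 1.30, 3.16 and 2.42 FPKM in controls. Erbb3 was 14.05, 17.8, 15.1 and 15.9 FPKM against 8.37, 13.4 and 9.08 FPKM. The glial marker gene Sox10 differed by 0.49 ± 0.29 (SE), with overlapping groups. Reg3b, of the regenerating protein family, was 9.36 and 12.01 FPKM in mutants 2 and 3, 0.97 FPKM in mutant 1 and listed at 0 in mutant 4, and it did not exceed 0.334 FPKM in controls.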
